A study of Mus musculus with 6 samples.

Results

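The genes described are the cellular partners of the fusion oncogenes of this leukaemia and the adaptors through which BCR-ABL signals. They are Bcr, Abl1 and Nup98, the adaptors Gab2, Crkl, Grb2 and Shc1, and the inhibitory proteins Dok1, Dok2 and Inpp5d, 10 genes chosen by symbol from the 53819 genes of the count table. All 10 passed the filter on low counts and are among the 15232 genes tested. RNA was sequenced from mouse leukaemia cells sorted from spleens, in 3 libraries of genotype SLC6A6 KO (KO1 to KO3) and 3 of genotype SLC6A6 WT (WT1 to WT3). In both groups mice had been transplanted with primary leukaemia cells that carry BCR-ABL and NUP98-HOXA9, a pair of fusions that models chronic myeloid leukaemia in blast crisis. Slc6a6 encodes the taurine transporter, and the series title speaks of a knock-down where the sample labels say KO. The strain, sex and age of the mice, the allele, the species of the fusion cDNAs, the sorting marker and whether libraries came from separate mice are not stated in the labels. The p-values therefore measure only the spread between these libraries, which may be technical.

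BCR-ABL is a constitutively active tyrosine kinase that joins the front of BCR to most of ABL1. A phosphorylated tyrosine in its BCR part binds GRB2, which brings in the scaffold GAB2 and opens the RAS and PI3 kinase pathways. SHC1 and CRKL are further adaptors phosphorylated by the kinase, while DOK1, DOK2 and the lipid phosphatase SHIP1, the product of Inpp5d, restrain the same pathways. NUP98 is a nuclear pore protein whose front part, joined to the homeodomain of HOXA9, acts as a transcription factor.

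The counts are per gene, so reads of a fusion transcript that match the mouse gene cannot be separated from reads of the mouse transcript itself. The junction of the mouse Abl1 transcript shows where this matters, because the usual BCR-ABL fusion keeps ABL1 from exon 2 onwards and loses the first exon. In GENCODE M21 (GRCm38), 3 of the 5 coding Abl1 transcripts examined enter the same second exon (chr2:31778334-31778507, plus strand), each from a different first exon. Of these, 2 are printed. The one not printed has its first exon further downstream than both (chr2:31760173-31760455). Below, the last 30 bases of the first exon are in lower case and the first 30 bases of exon 2 in capitals.
Abl1 from the upstream first exon (chr2:31688551-31689942): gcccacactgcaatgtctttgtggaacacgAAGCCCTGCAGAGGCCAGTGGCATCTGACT
Abl1 from the downstream first exon (chr2:31759943-31760115): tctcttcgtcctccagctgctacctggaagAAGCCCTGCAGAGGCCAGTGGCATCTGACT
The capitals are identical in both, and a read wholly inside exon 2 or later exons carries no trace of what precedes it. Exon-level reads were not analysed here, so Bcr, Abl1, Nup98 and Hoxa9 below mean all reads assigned to those genes.

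The start regions of the 3 fusion partner genes and of Inpp5d, a gene of blood cells, are shown as examples, the first window listed for each gene. The sequences are from RefSeq (GRCm38.p6) and run from 250 bases before to 50 bases after an annotated start. Capitals mark GGGCGG or its complement CCGCCC (a GC box, the motif of Sp1-type factors, with overlapping matches counted) in the first 3, and AGGAAGT or its complement ACTTCCT (an ETS-type motif) in Inpp5d.
Bcr (chr10:75060646-75060945, plus strand): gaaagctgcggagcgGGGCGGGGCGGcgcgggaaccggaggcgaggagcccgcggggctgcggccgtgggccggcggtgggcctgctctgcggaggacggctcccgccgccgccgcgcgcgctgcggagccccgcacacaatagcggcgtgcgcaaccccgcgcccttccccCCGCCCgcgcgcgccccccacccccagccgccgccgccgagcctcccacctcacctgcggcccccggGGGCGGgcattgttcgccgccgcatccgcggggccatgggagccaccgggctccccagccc
Abl1 (chr2:31759689-31759988, plus strand): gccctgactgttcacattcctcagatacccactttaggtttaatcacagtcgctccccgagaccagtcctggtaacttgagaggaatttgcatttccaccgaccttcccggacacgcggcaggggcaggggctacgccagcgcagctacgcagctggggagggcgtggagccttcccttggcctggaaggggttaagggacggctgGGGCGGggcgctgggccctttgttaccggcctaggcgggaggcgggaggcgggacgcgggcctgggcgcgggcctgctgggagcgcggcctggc
Nup98 (chr7:102210117-102210416, minus strand): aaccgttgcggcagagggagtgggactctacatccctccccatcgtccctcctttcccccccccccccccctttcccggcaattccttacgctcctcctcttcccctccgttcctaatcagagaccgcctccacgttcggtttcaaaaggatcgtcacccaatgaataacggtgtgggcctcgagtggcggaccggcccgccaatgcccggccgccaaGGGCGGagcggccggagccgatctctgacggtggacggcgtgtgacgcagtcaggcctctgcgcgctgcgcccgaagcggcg
Inpp5d (chr1:87620062-87620361, plus strand): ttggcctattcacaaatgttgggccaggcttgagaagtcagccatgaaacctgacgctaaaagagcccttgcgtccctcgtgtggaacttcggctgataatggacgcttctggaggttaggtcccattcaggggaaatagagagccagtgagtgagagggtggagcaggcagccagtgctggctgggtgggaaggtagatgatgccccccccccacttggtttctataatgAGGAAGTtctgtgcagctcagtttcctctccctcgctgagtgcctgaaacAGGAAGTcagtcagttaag
The Bcr window held 4 GC boxes and 82.3% G or C, and the Abl1 and Nup98 windows held 1 GC box each with 67.0% and 66.3% G or C. The second windows of Abl1 and Nup98, not printed, held 1 and 3 GC boxes with 70.0% and 74.7% G or C. The Inpp5d window held no GC box, 2 ETS-type motifs and 53.7% G or C. Of all 32851 RefSeq windows of 300 bases, 35.7% held at least 1 GC box and 9.35% at least 1 ETS-type motif. A match is a description of the letters, and both motifs were chosen after the sequences had been seen. Of the 10 genes, 7 matched this table. Among the others that matched, Shc1 held 1 GC box in the first of its windows and none in the second, and Crkl and Grb2 held none. Gab1, a relative of Gab2 that was higher in the KO libraries, held 2 GC boxes in each of its windows. The ETS-type motif was not particular to Inpp5d. The first window of Shc1 and the second window of Grb2 held 1 each, and the other windows of these genes held none.

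Total counts per library ranged from 42829294 to 49537098, and the 10 genes each had between 1434 and 19393 counts in a library. Levels are given as CPM (counts scaled to a common library size) scaled by TMM, edgeR's correction for library composition, and the 3 values of a group are always listed in the order of the library numbers. Slc6a6 stood at 125, 132 and 133 CPM in the KO libraries and at 151, 145 and 145 CPM in the WT libraries, a difference that did not pass the test (edgeR quasi-likelihood F test, Benjamini-Hochberg adjusted p = 0.196). Y-linked transcripts of 4 genes had 10274 to 11236 counts in each KO library and 0 to 1 in each WT library. Xist went the other way, at 4.41, 0.305 and 0.776 CPM in KO and 197, 177 and 160 CPM in WT. The sex of the cells thus went with the label. For every gene, a difference by sex or by donor of the cells and one by genotype cannot be told apart. In these bulk libraries, fewer cells of a type and less RNA per cell cannot be told apart either.

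Among the 10 genes, Bcr and Gab2 fell in the KO libraries, 0 rose, and the other 8 stayed short of the threshold. Over all tested genes, 1.92% were called lower and 1.64% higher at an adjusted p below 0.05. The 3 KO libraries lay below the 3 WT libraries in 5 of the 10 genes (Bcr, Abl1, Nup98, Gab2 and Dok2) and above them in 1 (Crkl), against 14.4% and 13.6% of tested genes. The median log2 fold change, KO over WT, was −0.17 over the 10 genes and 0.01 over all tested genes. With 10 genes chosen with earlier results known, these shares describe the genes and were not tested.

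**Figure D1:**
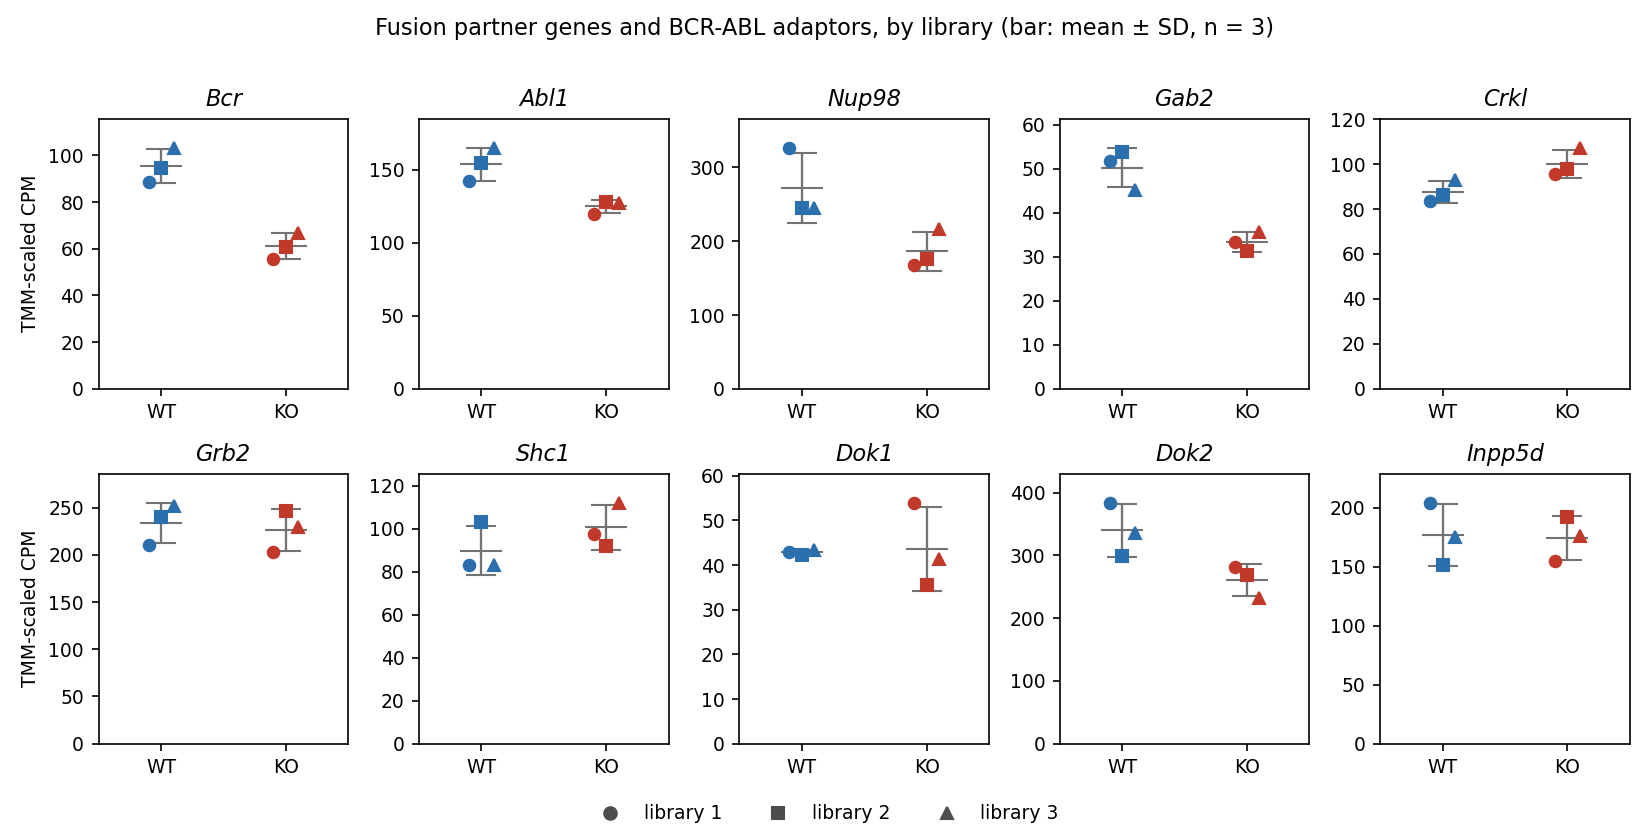
Each panel plots 1 gene in TMM-scaled CPM (linear axis from 0) for the WT and KO libraries, with a symbol per library and bars for the mean ± SD (n = 3). Bcr, Abl1, Nup98, Gab2 and Dok2 lie lower in all KO libraries than in any WT library, Crkl lies higher, and the groups overlap in Grb2, Shc1, Dok1 and Inpp5d.

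Bcr, which encodes a protein with GTPase-regulating domains and supplies the front of the fusion kinase, was measured at 55.7, 60.8 and 66.8 CPM in the KO libraries. In the WT libraries it stood at 88.7, 94.5 and 103 CPM. The highest KO library was thus well below the lowest WT library. Bcr was 36.1% lower (log2 fold change −0.65 ± 0.10, SE, n = 3 against 3, edgeR adjusted p = 0.0281). It kept its call without KO2 and without WT1 and lost it without KO1 (adjusted p = 0.0939), KO3 (0.0627), WT2 (0.0742) or WT3 (0.116), while its log2 fold change stayed between −0.72 and −0.58.

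Abl1, the tyrosine kinase gene, had 120, 128 and 127 CPM in the KO libraries and 142, 154 and 165 CPM in the WT libraries. The groups did not overlap, and the gap between KO2 and WT1 was smaller than the range of the WT libraries. Abl1 was 18.7% lower in the fit (log2 fold change −0.30 ± 0.08, SE, 95% interval −0.50 to −0.10), short of the threshold over all genes (edgeR adjusted p = 0.0986). In the GENCODE M21 annotation an antisense gene, Gm13427, covers 0.811% of the exon bases of Abl1, and this chemistry does not mark strand. No exon of another annotated gene overlaps those of the other 9 genes.

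Nup98 encodes both a pore protein and, from the same precursor, the scaffold nucleoporin NUP96. It was measured at 167, 175 and 216 CPM in the KO libraries, and at 327, 245 and 245 CPM in the WT libraries. WT1 stood above all other libraries, and KO3 was the KO library nearest to the WT group. The log2 fold change was −0.55 ± 0.15 (SE, 95% interval −0.90 to −0.19), with an edgeR adjusted p of 0.0961. Hoxa9, the other partner in the NUP98-HOXA9 fusion, had 101, 97.3 and 108 CPM in the KO libraries and 140, 132 and 129 CPM in the WT libraries, with an edgeR adjusted p of 0.0502. All 4 genes that contribute to the fusions were therefore lower in every KO library than in any WT library, as were 14.4% of all tested genes, and 1 of the 4, Bcr, passed the test, as did 1.92% of tested genes in that direction.

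Because library size cancels in a ratio of counts within a library, Bcr was also set against Abl1. The ratio was 0.466, 0.474 and 0.526 in the KO libraries and 0.625, 0.613 and 0.628 in the WT libraries. The WT ratios were nearly identical, and all 3 KO ratios lay below them. The group means were 0.489 ± 0.0328 against 0.622 ± 0.0075 (SD, n = 3 each; two-sided exact permutation p = 0.1, adjusted p = 0.2 over 6 ratios, where 0.1 is the smallest p that 3 against 3 allows). The ratio of Nup98 to Abl1 overlapped between the groups, at 1.49 ± 0.186 in KO and 1.79 ± 0.445 in WT (exact permutation p = 0.4, adjusted p = 0.48).

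Of the 4 adaptors, Gab2 fell and the other 3 did not pass the test. Gab2, the scaffold that links GRB2 to PI3 kinase and to the phosphatase encoded by Ptpn11, had 33.3, 31.2 and 35.6 CPM in the KO libraries. In the WT libraries it stood at 51.7, 53.9 and 45.2 CPM. The KO libraries were close together and all below WT3, the lowest WT library. Gab2 was 33.6% lower (log2 fold change −0.59 ± 0.11, SE, edgeR adjusted p = 0.0426). It did not pass in any of the 6 fits that left out 1 library (KO1, KO2, KO3, WT1, WT2 or WT3), where adjusted p-values lay between 0.0677 and 0.130 and log2 fold changes between −0.68 and −0.54.

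Grb2, the SH2 and SH3 adaptor that carries SOS to the membrane, was measured at 203, 247 and 230 CPM in the KO libraries and at 211, 240 and 252 CPM in the WT libraries. The groups overlapped, KO1 being the lowest and WT3 the highest library, with a log2 fold change of −0.05 (95% interval −0.30 to 0.20, edgeR adjusted p = 0.835). The interval leaves room for a fold between 0.815 and 1.15. The ratio of Gab2 to Grb2 counts was 0.164, 0.127 and 0.155 in the KO libraries and 0.246, 0.225 and 0.179 in the WT libraries, without overlap (two-sided exact permutation p = 0.1, adjusted p = 0.2 over 6 ratios).

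Crkl, an SH2 and SH3 adaptor whose phosphorylation is widely used as a readout of BCR-ABL activity, had 95.7, 97.6 and 107 CPM in the KO libraries and 83.7, 86.2 and 93.1 CPM in the WT libraries. All KO libraries were higher than all WT libraries, by a narrow margin between WT3 and KO1. The log2 fold change was 0.19 ± 0.09 (SE, 95% interval −0.01 to 0.40), with an edgeR adjusted p of 0.253. Shc1, which passes signals from receptors and kinases to GRB2, stood at 97.7, 91.8 and 112 CPM in KO and 83.3, 103 and 83.2 CPM in WT. WT2 lay among the KO libraries, and the log2 fold change of 0.16 (95% interval −0.13 to 0.45) had an edgeR adjusted p of 0.496.

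**Figure D2:**
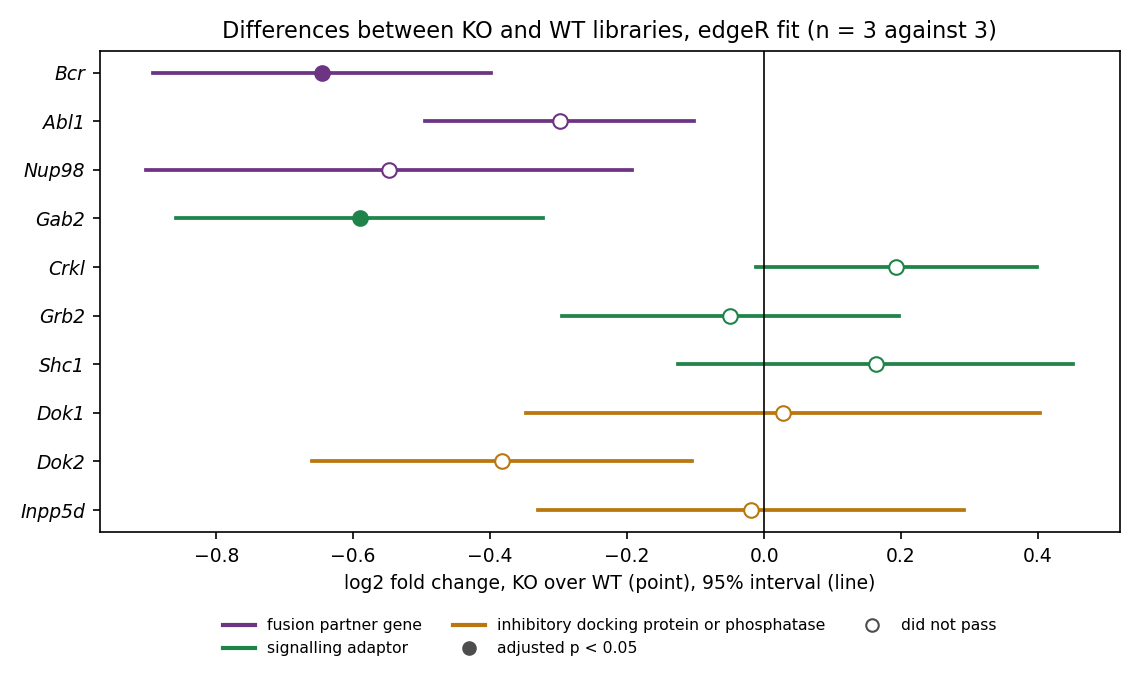
Points are log2 fold changes, KO over WT, from the edgeR fit over all genes, and lines are 95% intervals (n = 3 against 3). Filled points passed an adjusted p below 0.05. Bcr (−0.65) and Gab2 (−0.59) are filled, and the intervals of Crkl, Grb2, Shc1, Dok1 and Inpp5d include 0.

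None of the 3 inhibitory genes passed the test. Dok2, which with Dok1 encodes docking proteins that recruit the RAS GTPase-activating protein, was measured at 281, 269 and 232 CPM in the KO libraries and at 384, 300 and 336 CPM in the WT libraries. The KO libraries were all lower, KO1 and WT2 lying closest to each other. The log2 fold change was −0.38 ± 0.12 (SE, 95% interval −0.66 to −0.11), with an edgeR adjusted p of 0.123.

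Dok1 had 54.0, 35.6 and 41.4 CPM in the KO libraries and 42.9, 42.3 and 43.4 CPM in the WT libraries. The WT libraries were nearly equal, while KO1 was the highest and KO2 the lowest of all 6. The log2 fold change was 0.03 (95% interval −0.35 to 0.40, edgeR adjusted p = 0.946). It was −0.15 without KO1, so its sign rests on that library. The count ratio of Dok2 to Dok1 was 6.12 ± 1.26 in KO and 7.93 ± 0.945 in WT (SD, n = 3 each), with overlap between KO2 and the WT libraries (exact permutation p = 0.2, adjusted p = 0.3).

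Inpp5d, whose product SHIP1 removes a phosphate from the lipid made by PI3 kinase, was at 155, 193 and 176 CPM in the KO libraries and at 205, 152 and 175 CPM in the WT libraries. The KO values lay inside the range of the WT values. Its log2 fold change of −0.02 (95% interval −0.33 to 0.29, edgeR adjusted p = 0.954) turned to 0.06 without KO1 and to 0.08 without WT1.

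Levels of different genes can be compared only per length, here as CPM per kilobase of annotated exon (GENCODE M21) over all 6 libraries. Dok2, at 103 ± 18.5 CPM per kilobase (SD, n = 6), and Grb2, at 78.9 ± 6.81, stood above the other 8 genes. Inpp5d (23.1 ± 2.71), Dok1 (21.9 ± 3.02), Crkl (18.6 ± 1.69), Nup98 (18.2 ± 4.62) and Shc1 (16.9 ± 2.02) followed, and neighbours in that order did not differ beyond their spread. The place of Nup98 turned with the group: at 21.6 ± 3.76 in WT (SD, n = 3) it stood above Crkl (17.4) and Shc1 (15.9), and at 14.8 ± 2.08 in KO below them (19.9 and 17.8). Abl1 was at 12.0 ± 1.51, Bcr at 9.56 ± 2.41 and Gab2 lowest at 6.78 ± 1.59 CPM per kilobase. Per length, the adaptor Grb2 and its partner scaffold Gab2 thus stood near opposite ends of the order. With the longest transcript as the length, Inpp5d (35.6), Nup98 (34.3) and Shc1 (29.3) stood above Abl1 (22.0), Dok1 (22.0) and Crkl (18.6), while Dok2 and Grb2 kept the top places and Gab2 the last.

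The other genes of the pathway were taken from 3 lists, of paralogues, of effectors and regulators, and of nuclear pore proteins. Of 16 paralogues of the 10 genes, 12 were tested, 1 rose, 0 fell (1.64% and 1.92% of all tested genes), and the median log2 fold change was 0.43 against 0.01 over all tested genes. The one that rose was Gab1, a relative of Gab2 and a scaffold that acts mainly below growth factor receptors. It had 17.8, 10.2 and 21.2 CPM in the KO libraries and 4.14, 5.94 and 3.74 CPM in the WT libraries. All KO values were above all WT values, KO2 being the lowest of the KO group. Gab1 was 3.56-fold higher (log2 fold change 1.83 ± 0.33, SE, edgeR adjusted p = 0.0369). The call held without KO2 (adjusted p = 0.0280) and not without KO1 (0.117), KO3 (0.110), WT1 (0.0895), WT2 (0.0651) or WT3 (0.147). An antisense gene, Gm31105, covers 5.23% of the exon bases of Gab1.

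Gab1 and Gab2 thus differed between the groups in opposite directions. There were 0.535, 0.327 and 0.595 counts of Gab1 per count of Gab2 in the KO libraries, against 0.0800, 0.110 and 0.0826 in the WT libraries. The lowest KO ratio was well above the highest WT ratio, yet Gab2 had more counts than Gab1 in all 6 libraries. The exact permutation test again gave its smallest two-sided p of 0.1 (adjusted p = 0.2 over 6 ratios). This ratio was chosen after the values of both genes had been seen.

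**Figure D3:**
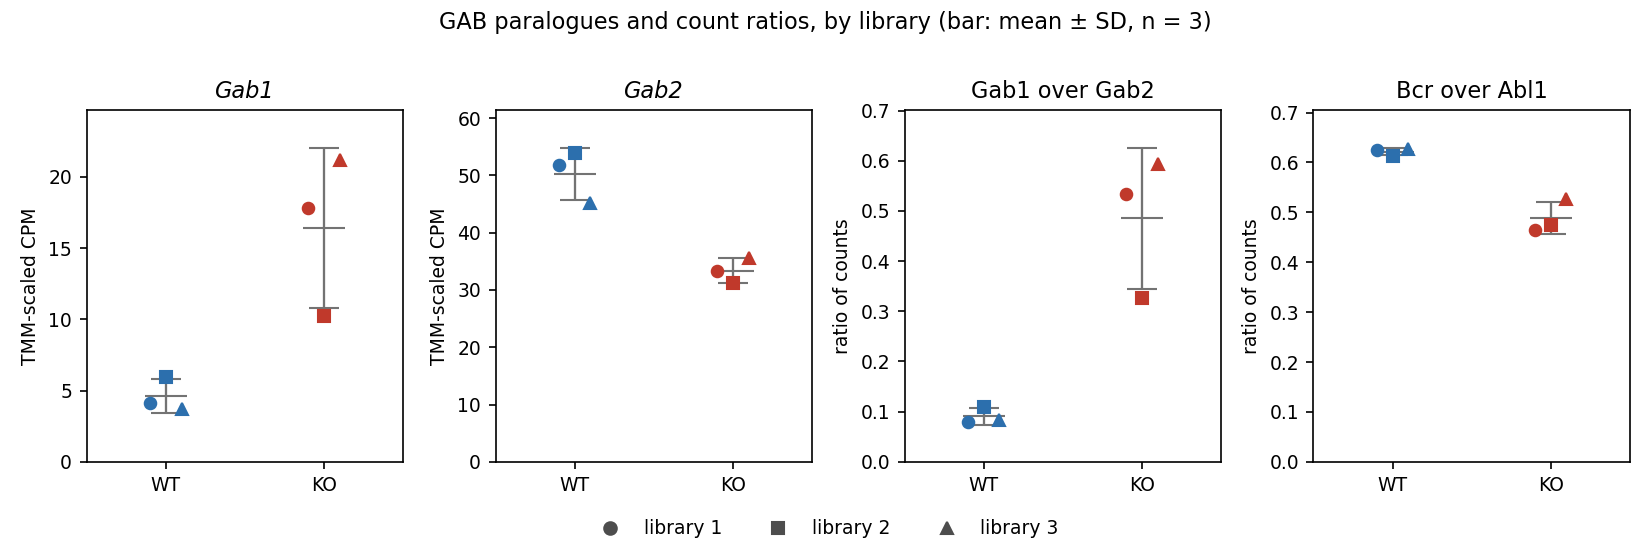
The 2 panels on the left plot Gab1 and Gab2 in TMM-scaled CPM, and the 2 on the right plot the ratios of counts of Gab1 to Gab2 and of Bcr to Abl1, by library (linear axes from 0, bars for mean ± SD, n = 3). Gab1 lies higher and Gab2 lower in the KO libraries, and neither ratio overlaps between the groups.

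Other paralogues, named after their values were seen, were Dok3, a docking protein of B cells and macrophages, and Abr, the closest relative of Bcr. Dok3 had 1.44, 1.24 and 1.04 CPM in the KO libraries and 17.1, 3.18 and 7.25 CPM in the WT libraries, with an edgeR adjusted p of 0.0541. Abr had 22.2, 17.2 and 17.3 CPM in KO against 13.6, 10.4 and 11.1 CPM in WT, higher in each KO library where Bcr was lower, with an edgeR adjusted p of 0.0907. For Crk, the relative of Crkl and also named after its values were seen, the ratio of Crkl to Crk counts was 0.933 ± 0.112 in KO and 0.970 ± 0.154 in WT (SD, n = 3 each; exact permutation p = 0.8, adjusted p = 0.8). Shc2, Dok5, Dok6 and Dok7 did not pass the filter, and Shc2 and Dok5 had 0 counts in all 6 libraries.

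Of 33 effectors and regulators, 1 rose and 0 fell, a share near the 1.64% and 1.92% of all tested genes, and the median log2 fold change was −0.04. Jak2, the cytokine receptor kinase that also binds BCR-ABL complexes, was measured at 118, 105 and 120 CPM in the KO libraries and at 83.9, 81.4 and 72.7 CPM in the WT libraries. The groups were well separated, and Jak2 was 1.44-fold higher (log2 fold change 0.53 ± 0.09, SE, edgeR adjusted p = 0.0364). The call held without KO2 (adjusted p = 0.0387) and not without KO1 (0.123), KO3 (0.121), WT1 (0.0677), WT2 (0.0885) or WT3 (0.148). Rasa1, the RAS GTPase-activating protein that the DOK proteins recruit, and Ptpn6, which encodes the phosphatase SHP1, were also looked at after their values were seen. Rasa1 stood at 117, 117 and 98.8 CPM in KO and 174, 138 and 159 CPM in WT (edgeR adjusted p = 0.0648). Ptpn6 stood at 236, 218 and 218 CPM in KO and 460, 263 and 353 CPM in WT (edgeR adjusted p = 0.0973), and both genes were lower in each KO library than in any WT library.

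Of 29 nuclear pore and export genes, 0 passed the edgeR test in either direction, with 1 lower and 1 higher at an unadjusted p below 0.05 (22.0% of all tested genes had such a p in either direction). Their median log2 fold change was 0.02, and the range of −0.35 to 0.24 did not reach the −0.55 of Nup98. The smallest p was that of Nup37, a scaffold nucleoporin, at 91.0, 112 and 104 CPM in KO and 123, 135 and 132 CPM in WT (log2 fold change −0.35, edgeR adjusted p = 0.0978). DESeq2 called Nup37 lower, with an adjusted p of 0.0289.

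**Figure D4:**
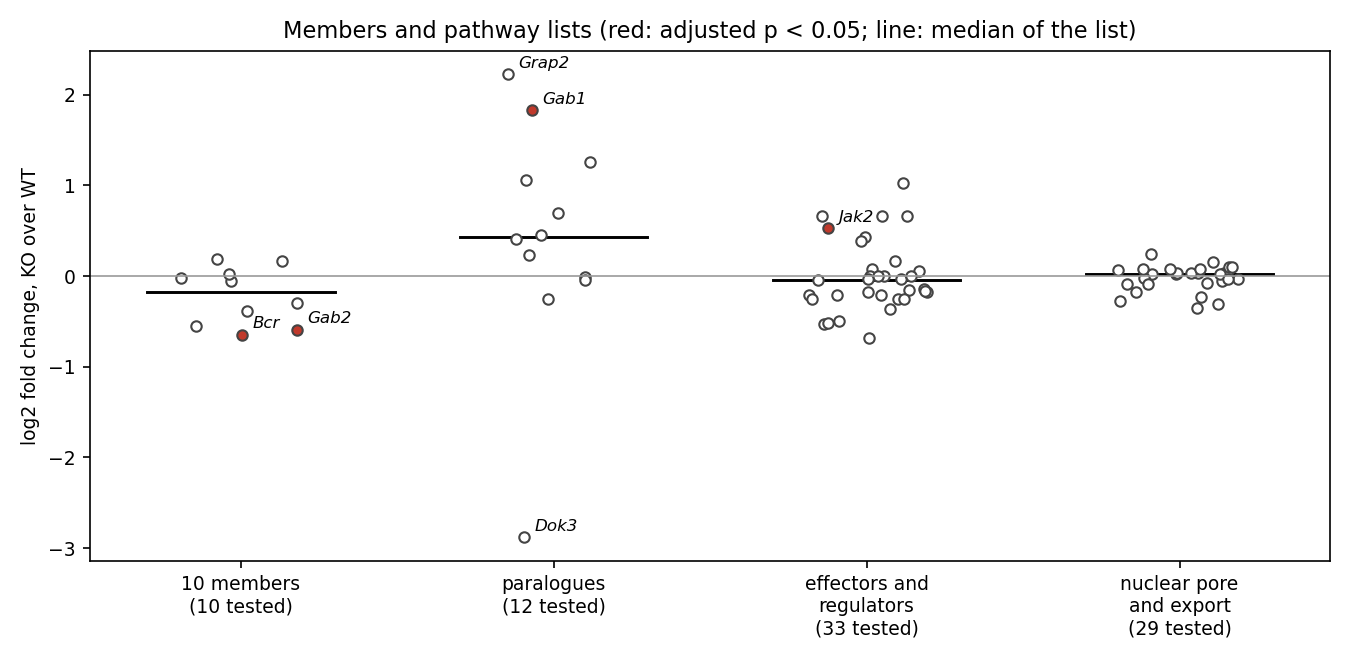
Each point is the log2 fold change, KO over WT, of 1 tested gene among the 10 genes described and the 3 pathway lists, filled red where the edgeR adjusted p was below 0.05, and black lines are medians. Bcr and Gab2 are red below 0, Gab1 and Jak2 red above 0, and the nuclear pore genes lie between −0.35 and 0.24.

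Some markers of other blood cells also differed between the groups, where 1.64% of all tested genes were called higher and 1.92% lower. The docking proteins, SHIP1 and the GAB scaffolds are made by many of those cells. Among the leukocyte genes of the labelled cell type, Ptprc (CD45) was present at 50.1 to 148 CPM and Spi1 at 38.9 to 97.4 CPM. Mpo was at 0, 1.65 and 21.8 CPM in KO and 53.1, 11.8 and 8.27 CPM in WT. Itgam, from the same list, was low in all libraries, at 1.01, 0.196 and 0.873 CPM in KO and 1.76, 0.695 and 0.663 CPM in WT. Of the 7 genes on that list 1 was called: Kit, the stem cell factor receptor, stood at 75.9, 74.8 and 44.6 CPM in KO and 25.6, 9.90 and 18.1 CPM in WT. The progenitor marker Cd34 was at 0.878, 2.42 and 1.53 CPM in KO and 16.9, 3.14 and 5.08 CPM in WT, and was not called. Of the B cell markers, 2 of 5 tested rose, Cd79b and Blk. The summed level was 28.5 to 72.8 CPM in KO and 2.99 to 13.7 CPM in WT. This sum was mostly Igkc, not called, at 47.1, 24.5 and 65.2 CPM in KO and 1.88, 12.4 and 2.59 CPM in WT. Pax5 was at 0 in all 3 WT libraries. Of the macrophage markers, 2 of 8 rose, Csf1r and Mrc1 (sums over the list of 57.5 to 137 CPM in KO, 27.3 to 45.0 in WT). The log2 fold change was positive in 6 of the 8. Cd68 overlapped between the groups, at 12.3, 6.25 and 5.48 CPM in KO and 11.6, 6.20 and 9.70 CPM in WT. So did Adgre1, at 7.43, 3.22 and 6.42 CPM in KO and 12.6, 5.46 and 2.39 CPM in WT. Of the dendritic cell markers, 3 of 6 rose (120 to 138 against 48.0 to 55.4 CPM). Those 3 were Cd74, H2-Aa and H2-Eb1, while H2-Ab1, Itgax and Zbtb46 were not called. Zbtb46 overlapped between the groups, at 18.3, 5.68 and 14.8 CPM in KO and 3.39, 12.5 and 7.01 CPM in WT. Of the T and NK cell markers, 5 of 9 rose, at low levels of 0.849 to 4.41 CPM in KO, with Cd3e at 0 in WT2 and WT3. The sum over the list, carried by Nkg7, was 728 to 1042 CPM in KO and 692 to 846 in WT. The log2 fold change was positive in 8 of the 9. Klrb1c, not called, went the other way with overlap, at 1.17, 0.849 and 0.557 CPM in KO and 6.06, 0.906 and 2.28 CPM in WT. Erythroid markers summed to 7598 to 26375 CPM in KO and 2195 to 10308 in WT with 0 of 10 called. Their log2 fold change was positive in 10 of 10, though the sum was lower in KO2 than in WT2. Neutrophil markers summed to 14.5 to 208 CPM in KO and 104 to 741 in WT with 0 of 7 called, and the log2 fold change was positive in 2 of 7. Of the 5 megakaryocyte markers, 1 rose and 1 fell (616 to 946 CPM in KO, 941 to 1627 in WT). Of 6 stromal and endothelial markers 3 were tested and 0 called (132 to 193 CPM in KO, 118 to 253 in WT), and Cdh5 was at 0 in all libraries. The part of these cells in the differences of Bcr, Gab2, Gab1 and Jak2 was not tested.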

How the data were processed

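The authors deposited 1 table of raw counts of reads per gene, with a column for each of the 6 libraries. Per the labels' protocols, cDNA was amplified from a small input of RNA by the SMARTer chemistry, made into Nextera XT libraries and read from a single end. This chemistry keeps neither strand nor molecular identifiers. The tools, per the submitters' processing notes, were featureCounts, Subread 2.0.1, STAR 2.7.9a and fastp 0.23.1. Their settings, the gene annotation, the build and the treatment of multi-mapping reads were not given in the sources used here.

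Genes were filtered with filterByExpr (minimum count 10, minimum total 15), which left 15232, scaled by TMM and tested with the quasi-likelihood F test of edgeR 4.0.16 under R 4.3.3, with Benjamini-Hochberg adjustment over all tested genes and a threshold of 0.05. The standard error is the log2 fold change divided by the square root of F. Ratios were compared with exact permutation tests (scipy 1.17.1). The code was tested on simulated counts. Replicates agreed less well than sampling noise allows (chi-square per degree of freedom 32.8 to 113). Exon lengths are from GENCODE M21. The naming rule takes all 10 genes and, from each pathway list, the genes past the threshold or, with none, the one with the smallest p. Dok3, Abr, Crk, Rasa1, Ptpn6 and the untested paralogues fall outside it and were chosen after their values were seen. One listed marker is not reported here. The genes and lists were chosen with earlier results of these data known. Alternatives were 3 other scalings, 2 other filters, DESeq2 1.42.0, limma-voom (limma 3.58.1), a replicate block and leaving out each library.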

Additional observations from a re-analysis of the deposited data

How the results depend on the processing

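Bcr and Gab2 were the genes called among the 10 under the 3 other scalings, both other filters and limma-voom. DESeq2's Wald test called 5 of the 10 lower, adding Abl1 (log2 fold change −0.29, adjusted p = 0.0317), Nup98 (−0.54, 0.0120) and Dok2 (−0.38, 0.0428), where it called 920 genes lower and 1075 higher in all against 293 and 250 in edgeR. With the replicate block, 0 of the 10 were called lower, Bcr at −0.65 (adjusted p = 0.0801) and Gab2 at −0.59 (0.145), and 20 genes were lower and 8 higher in all. Deviations from the group mean correlated across genes at 0.06, −0.14 and −0.07 between libraries of the same number. Between libraries of different numbers the correlations ran from −0.13 to 0.19. With group means of only 3 libraries, this check cannot decide whether libraries of the same number pair. Leaving out 1 library gave 0 to 1 of the 10 lower and 0 higher, with 29 to 247 genes lower and 13 to 371 higher in all. Log2 fold changes then ranged from −0.72 to −0.58 for Bcr, −0.68 to −0.54 for Gab2, −0.37 to −0.26 for Abl1, −0.67 to −0.42 for Nup98, −0.47 to −0.31 for Dok2, 0.13 to 0.23 for Crkl and 0.07 to 0.27 for Shc1. For Grb2 they ran from −0.14 to 0.024, for Dok1 from −0.15 to 0.147 and for Inpp5d from −0.12 to 0.077, the sign turning without KO1 for Grb2 (0.024), Dok1 (−0.15) and Inpp5d (0.059) and without WT1 for Inpp5d (0.077). Gab1 lost its call under limma-voom (adjusted p = 0.0526) and, like Jak2 (0.122), under the replicate block (0.144). Per kilobase of the longest transcript, levels moved to 22.0 for Abl1, 34.3 for Nup98, 29.3 for Shc1, 167 for Dok2 and 35.6 for Inpp5d. Fits without 1 library hold fewer samples, and the cause of the other changes was not tested.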
